A study of Mus musculus with 4 samples.

Results

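The 10 transcripts described here are ones that neutrophils, monocytes and macrophages are known for: S100a8, S100a9, Ly6c2, Lyz2, Cd68, Csf1r, Fcer1g, Tyrobp, Ptprc and Retnla. They were chosen by name and make up 10 of the 24421 gene rows of the deposited count table, and all 10 had enough reads to be tested. They were read in a bulk RNA sequencing series on lymphatic endothelial cells, the lining of lymphatic vessels, taken from newborn (postnatal day 0) mouse lungs by sorting GFP-positive cells that had CD31 and lacked CD45. All mice carried Prox1-CreER, a tamoxifen-dependent Cre recombinase made where Prox1 is active, and Rosa26-mTmG, a reporter that switches to green after Cre acts. The Jun-Ctrl group was Junf/+, with 1 floxed and 1 wild-type Jun allele, and the Jun-cKO group was Junf/f, with both alleles floxed, so that the controls also had 1 allele open to Cre. Each group had 2 libraries, called replicate 1 and replicate 2, the second being the one titled as the replicate. Each was made from 3 to 5 pooled mice per the labels, and separate pools for the replicates are not stated in those labels, while the design text has cells of 3 replicates mixed before amplification. The tamoxifen schedule is not given in the sources used here.

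Leukocytes carry CD45, the product of Ptprc, so the gate was set to leave them out. Neutrophils are short-lived granulocytes that store antimicrobial proteins, among them the calcium-binding pair S100A8 and S100A9, which form calprotectin. Monocytes circulate and can enter tissue to become macrophages, which engulf particles, break them down in lysosomes, and depend on the receptor CSF1R. Several of the 10 genes are not restricted to these cells. In mouse lung Lyz2 is also a gene of alveolar type 2 epithelial cells, and Retnla can be made by airway and alveolar epithelium as well as by alternatively activated macrophages.

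Total counts ran from 6483514 to 16037416 per library, with the replicate 2 libraries the shallower ones. Replicates were not copies of one another, since the chi-square per gene had a median of 1.21 in the Jun-Ctrl pair and 1.48 in Jun-cKO where counting alone gives 0.455. They were kept as n = 2 per group, and every p-value therefore reflects a spread that may be purely technical. The targeted gene Jun stood at 452 ± 27.7 CPM (counts scaled to a common library size; mean ± SD) in the Jun-Ctrl pair and 499 ± 34.8 CPM in Jun-cKO, a log2 difference of 0.14 with an SE of 0.12 (adjusted p = 0.354, edgeR's quasi-likelihood test). With the GC correction Jun was called higher (adjusted p = 0.00319). Because Jun did not fall, the second group is called Jun-cKO-labelled from here on. The lymphatic identity of the cells was checked with 11 marker genes, whose summed level was 14201 to 15328 CPM in the Jun-Ctrl pair and 19684 to 20254 CPM in the Jun-cKO-labelled pair. Of 10 tested, 4 rose (Lyve1, Reln, Mmrn1 and Sema3d), 1 fell and 5 were not called, where 19.0% of all tested genes rose and 22.5% fell. The sum was weighted by Lyve1, the most abundant, which went from 6186 ± 304 to 9450 ± 1145 CPM. Prox1 was not called, at 41.5 ± 3.04 and 33.0 ± 1.64 CPM (adjusted p = 0.0686). The gene that fell was Flt4, 1.51-fold, a call that the GC correction ended at an adjusted p of 0.0783. Ccl21a had 0 counts in every library, and whether its reads also fit other genes was not checked.

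All 10 transcripts were detected in every library and all 10 were lower in the Jun-cKO-labelled pair, at an adjusted p under 0.05 over 12656 tested genes (quasi-likelihood test of edgeR, Benjamini-Hochberg adjustment). The median log2 fold change of the 10 was -1.55, that is a level at 34.2% of Jun-Ctrl, against a median of 0.01 over all tested genes. The falls ran from 1.76-fold for S100a8 to 26.6-fold for Retnla, and 9 of the 10 fell at least 2-fold. In the same comparison 22.5% of all tested genes were called lower and 19.0% higher, 41.5% in either direction, and 10.7% were called lower and fell at least 2-fold. Among the 8654 genes whose mean level lay within the range of the 10 transcripts, from 4.44 to 147 CPM, 21.3% were called lower. For each of the 10, both Jun-cKO-labelled libraries lay below both Jun-Ctrl libraries, which was so for 35.9% of all tested genes. The number of genes called lower, 2843 with all libraries, was 1815 without Jun-Ctrl replicate 1. In bulk RNA, fewer cells of a type and less RNA per cell cannot be told apart.

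**Figure D1:**
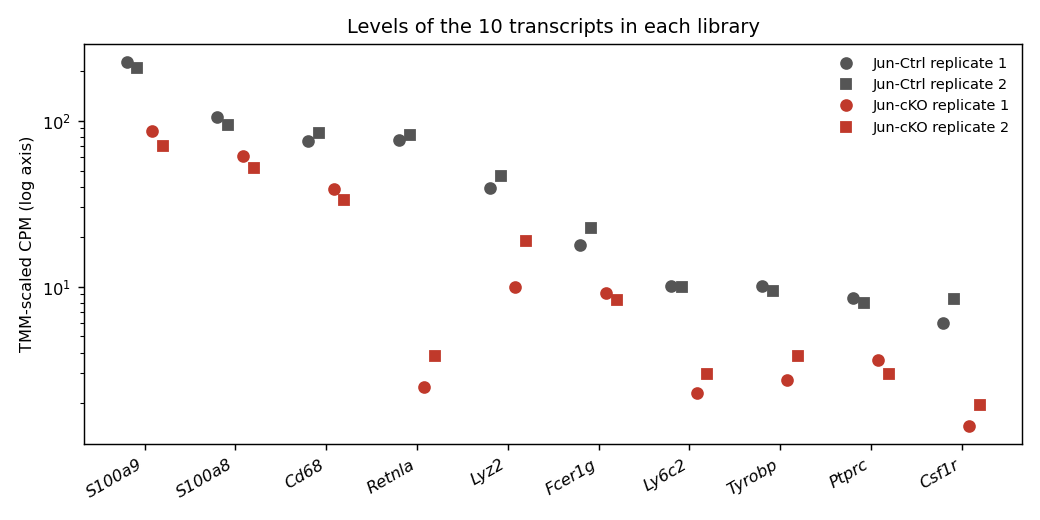
TMM-scaled CPM on a log axis for the 10 transcripts, ordered by their Jun-Ctrl mean; grey symbols are Jun-Ctrl and red symbols Jun-cKO-labelled libraries, with circles for replicate 1 and squares for replicate 2. For each transcript both red symbols lie below both grey ones, with the widest gap for Retnla.

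The upstream sequences of 8 of the 10 genes were matched by symbol in RefSeq's promoter table (GRCm38.p6), each taken as the 250 bases before an annotated start. They were searched for 3 motifs, among them that of AP-1, a factor of which the targeted gene Jun encodes a subunit. The genes were chosen by name as myeloid ones, and whether the motifs bear on the falls was not tested. The 5 genes shown each had at least 1 match, and Fcer1g, which is not shown, had none. Capitals mark matches to 3 motifs searched on both strands: AGGAAGT (the core bound by PU.1, the factor that directs myeloid development), TGANTCA (AP-1) and TTGCNNAA (C/EBP factors).
Cd68 (chr11:69666171-69666420, minus strand): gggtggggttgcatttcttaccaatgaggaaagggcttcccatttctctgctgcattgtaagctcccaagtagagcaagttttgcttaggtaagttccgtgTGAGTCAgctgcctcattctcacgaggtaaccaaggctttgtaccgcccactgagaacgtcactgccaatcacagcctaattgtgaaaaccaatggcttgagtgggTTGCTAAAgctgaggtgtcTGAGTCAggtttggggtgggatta
S100a8 (chr3:90668821-90669070, plus strand): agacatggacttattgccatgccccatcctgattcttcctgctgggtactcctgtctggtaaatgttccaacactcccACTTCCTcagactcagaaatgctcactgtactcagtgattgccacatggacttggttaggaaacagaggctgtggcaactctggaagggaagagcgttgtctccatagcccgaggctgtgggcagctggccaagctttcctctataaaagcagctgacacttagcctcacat
S100a9 (chr3:90695722-90695971, minus strand): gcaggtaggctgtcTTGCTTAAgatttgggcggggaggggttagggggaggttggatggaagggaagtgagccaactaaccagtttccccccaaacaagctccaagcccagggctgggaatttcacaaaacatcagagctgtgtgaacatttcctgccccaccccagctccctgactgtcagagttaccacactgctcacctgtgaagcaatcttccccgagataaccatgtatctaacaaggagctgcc
Lyz2 (chr10:117282273-117282522, minus strand): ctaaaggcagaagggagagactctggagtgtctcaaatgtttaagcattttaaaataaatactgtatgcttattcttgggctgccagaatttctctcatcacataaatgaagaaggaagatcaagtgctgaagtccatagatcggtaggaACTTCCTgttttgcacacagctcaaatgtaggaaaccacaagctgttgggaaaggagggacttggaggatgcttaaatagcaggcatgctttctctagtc
Retnla (chr16:48842359-48842608, plus strand): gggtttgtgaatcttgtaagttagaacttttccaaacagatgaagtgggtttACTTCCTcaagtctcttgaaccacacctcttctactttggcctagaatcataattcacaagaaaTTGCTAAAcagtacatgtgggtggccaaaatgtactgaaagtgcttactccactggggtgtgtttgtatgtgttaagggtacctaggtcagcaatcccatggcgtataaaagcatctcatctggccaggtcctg
The AGGAAGT letters were present upstream of 5 of the 8 genes (Ly6c2, Lyz2, Ptprc, Retnla and S100a8), and 8.80% of the 27025 genes in the table had such a match in at least 1 window. The AP-1 letters were present upstream of 1 of the 8, Cd68, at 149 and 24 bases before the start, and 7.82% of all genes had such a match. The C/EBP letters were present upstream of Cd68, Retnla and S100a9, and 10.8% of all genes had such a match. No 2 matches overlapped in the windows shown. A match describes letters in these windows and is not a measured binding site.

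The calprotectin genes S100a8 and S100a9 were the most abundant of the 10 when level was set per kilobase of gene length. S100a9 (chromosome 3, 90692632 to 90695721, minus strand, GRCm38) was at 225 and 208 CPM in the Jun-Ctrl pair and at 86.4 and 69.8 CPM in the Jun-cKO-labelled pair. It fell 2.75-fold (95% interval 2.32 to 3.26, log2 fold change -1.46, SE 0.12, adjusted p = 5.94e-14), and the groups were far apart compared with the spread within each. S100a8, its partner (chromosome 3, 90668978 to 90670035, plus strand), was at 104 and 94.6 CPM in the Jun-Ctrl pair and at 60.9 and 51.8 CPM in the Jun-cKO-labelled pair. S100a8 had the smallest fall of the 10, 1.76-fold (95% interval 1.48 to 2.09, log2 fold change -0.81, SE 0.12, adjusted p = 6.31e-07), and its interval did not reach that of S100a9. The count ratio of S100a8 to S100a9 was 0.465 and 0.455 in the Jun-Ctrl pair and 0.706 and 0.742 in the Jun-cKO-labelled pair, so the ratio was higher in both of the latter. An exact two-sided permutation test over 2 against 2 libraries cannot go below p = 0.33, which is what this ratio gave (0.444 after adjustment over the 16 ratios computed). The S100a8 call was the only one of the 10 that ended in a test against a 1.5-fold change (adjusted p = 0.0737), in which the other 9 passed and 9.42% of all genes were called lower.

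Ptprc, which encodes the CD45 that the gate selected against, had few reads. Its counts were 140 and 52 in the Jun-Ctrl pair and 55 and 20 in the Jun-cKO-labelled pair, or 8.49, 7.96, 3.60 and 2.95 CPM in that order. It fell 2.45-fold (95% interval 1.71 to 3.52, adjusted p = 6.94e-05), with no overlap between the groups. Per kilobase it was at 1.45 RPKM (CPM per kilobase of deposited gene length) in the Jun-Ctrl pair and 0.58 RPKM in the Jun-cKO-labelled pair, above 18.5% and 10.8% of the tested genes.

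Fcer1g and Tyrobp encode small membrane adaptors whose cytoplasmic motifs pass signals from Fc receptors and other activating receptors of myeloid and natural killer cells. Fcer1g (chromosome 1, 171229572 to 171234365) was at 17.8 and 22.5 CPM in the Jun-Ctrl pair and at 9.17 and 8.27 CPM in the Jun-cKO-labelled pair, a 2.24-fold fall (95% interval 1.72 to 2.93, adjusted p = 2.55e-06). Tyrobp, also known as DAP12 (chromosome 7, 30413760 to 30417585), was at 10.1 and 9.33 CPM in the Jun-Ctrl pair and at 2.75 and 3.84 CPM in the Jun-cKO-labelled pair, a 3.10-fold fall (95% interval 2.17 to 4.44, adjusted p = 1.32e-06). The intervals of these adaptors overlapped, and their count ratio, Tyrobp to Fcer1g, was 0.565 and 0.415 in the Jun-Ctrl pair and 0.300 and 0.464 in the Jun-cKO-labelled pair, with overlap.

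Ly6c2 and Csf1r are used to follow monocytes and their macrophage descendants. Ly6c2, a surface protein of inflammatory monocytes (chromosome 15, 75108158 to 75111970), was at 10.1 and 9.94 CPM in the Jun-Ctrl pair and at 2.29 and 2.95 CPM in the Jun-cKO-labelled pair, a 3.97-fold fall (95% interval 2.74 to 5.74, adjusted p = 3.70e-08). Csf1r, the receptor for the macrophage growth factors CSF1 and IL-34, had the fewest reads of the 10, with counts of 99 and 55 in the Jun-Ctrl pair and 22 and 13 in the Jun-cKO-labelled pair. It fell 4.31-fold, with the widest interval of the set on the fold scale after Retnla (2.75 to 6.75, adjusted p = 7.41e-07). Both genes were separated between groups by more than the difference between replicates, although the Jun-Ctrl libraries differed for Csf1r at 6.0 and 8.41 CPM.

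Cd68 and Lyz2 encode proteins of the phagocyte's digestive machinery, a lysosomal membrane glycoprotein and lysozyme. Cd68 (chromosome 11, 69664213 to 69666153) was at 74.9 and 84.1 CPM in the Jun-Ctrl pair and at 38.9 and 33.2 CPM in the Jun-cKO-labelled pair, a 2.18-fold fall (95% interval 1.81 to 2.61, adjusted p = 1.53e-09). Lyz2 (chromosome 10, 117277331 to 117282321) was at 39.1 and 46.5 CPM in the Jun-Ctrl pair and at 9.89 and 18.9 CPM in the Jun-cKO-labelled pair, a 3.12-fold fall (95% interval 2.41 to 4.04, adjusted p = 5.26e-10). The log2 fold change of Lyz2 was -1.16 without Jun-cKO replicate 1 and -2.09 without Jun-cKO replicate 2, against -1.64 with all libraries.

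Retnla, which encodes the secreted resistin-like molecule alpha (chromosome 16, 48842551 to 48844461), had the largest fall of the 10. It was at 76.5 and 81.4 CPM in the Jun-Ctrl pair and at 2.49 and 3.84 CPM in the Jun-cKO-labelled pair. The fall was 26.6-fold (95% interval 20.4 to 34.7, log2 fold change -4.73, SE 0.19, adjusted p = 1.05e-25), and its interval lay beyond those of the other 9, of which the farthest reached 6.75-fold. Per kilobase Retnla held rank 3 of the 10 in Jun-Ctrl, at 132 RPKM, and rank 7 in the Jun-cKO-labelled pair, at 5.29 RPKM.

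Per kilobase of gene length the order in Jun-Ctrl was S100a9, S100a8, Retnla, Cd68, Lyz2, Fcer1g, Tyrobp, Ly6c2, Csf1r and Ptprc, from 413 RPKM for S100a9 to 1.45 RPKM for Ptprc, and both libraries of each gene lay above both of the next. In the Jun-cKO-labelled pair the order was S100a9, S100a8, Cd68, Lyz2, Fcer1g, Tyrobp, Retnla, Ly6c2, Ptprc and Csf1r, from 149 RPKM for S100a9 to 0.43 RPKM for Csf1r. In that group S100a9 and S100a8, Lyz2 and Fcer1g, and Tyrobp and Retnla were neighbours whose libraries overlapped. The calprotectin pair made up 57.6% and 52.8% of the summed CPM of the 10 transcripts in the Jun-Ctrl pair and 67.6% and 61.6% in the Jun-cKO-labelled pair. The summed CPM itself was 572 and 573 in the Jun-Ctrl pair and 218 and 198 in the Jun-cKO-labelled pair.

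**Figure D2:**
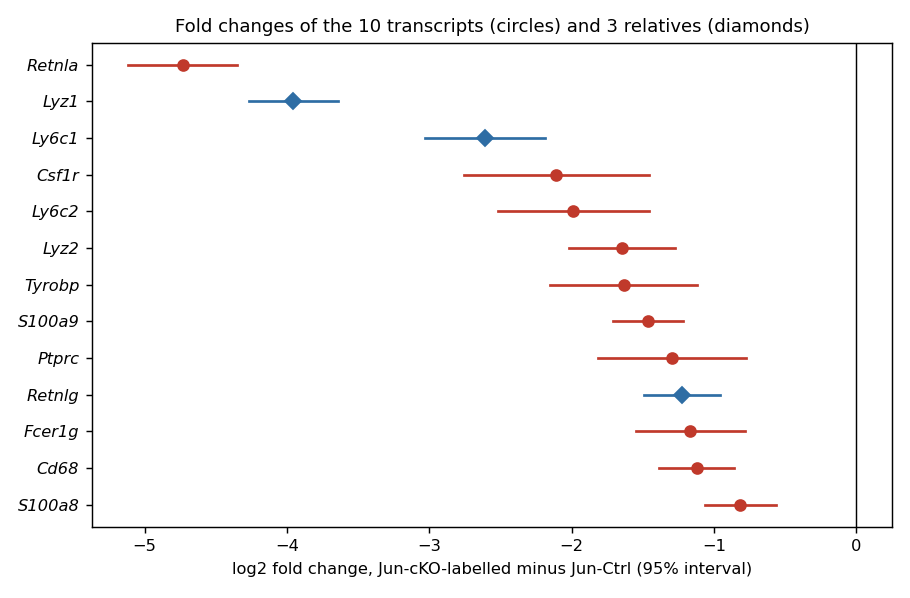
Log2 fold changes (Jun-cKO-labelled minus Jun-Ctrl) with 95% intervals for the 10 transcripts (red circles) and the relatives Lyz1, Ly6c1 and Retnlg (blue diamonds). All 13 intervals lie below 0, and Retnla and Lyz1 lie farthest from it.

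Set against Ptprc within each library, the transcripts did not all keep their proportions. The ratio of S100a9 to Ptprc counts was 26.5 and 26.1 in the Jun-Ctrl pair and 24.0 and 23.6 in the Jun-cKO-labelled pair, slightly lower in both. Lyz2, Fcer1g and Tyrobp had ratios to Ptprc that overlapped between the groups. The ratio of Retnla to Ptprc went from 9.01 and 10.2 to 0.691 and 1.30, that of Csf1r from 0.707 and 1.06 to 0.400 and 0.650, and that of Ly6c2 from 1.19 and 1.25 to 0.636 and 1.00. The ratios of S100a8 and Cd68 to Ptprc were higher in the Jun-cKO-labelled pair, at 16.9 and 17.6 after 12.3 and 11.9 for S100a8, and at 10.8 and 11.3 after 8.82 and 10.6 for Cd68. None of these ratios can pass an exact permutation test with 2 libraries a group (smallest p = 0.33), and the Ptprc counts of 20 to 140 limit their precision.

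Each of 3 members has a close relative beside it in the genome, which matters because reads of 79 bases can fit both. The first 120 coding bases of Lyz2 and Lyz1 (transcripts Lyz2-201 and Lyz1-201, GENCODE M21) are shown to let the near copies be compared, with capitals at the 11 positions that differ.
Lyz2: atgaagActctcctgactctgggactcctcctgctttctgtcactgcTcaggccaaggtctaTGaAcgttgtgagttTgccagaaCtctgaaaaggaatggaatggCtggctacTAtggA
Lyz1: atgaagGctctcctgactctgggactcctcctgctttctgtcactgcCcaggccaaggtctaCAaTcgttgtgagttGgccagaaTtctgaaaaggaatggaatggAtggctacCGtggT
Over the whole coding sequence of 447 bases the copies were identical at 425 positions, 95.1%. Of all windows of 79 bases in Lyz2 transcripts, 5.33% also occurred in Lyz1 transcripts (protein-coding transcripts only). For Ly6c2 and Ly6c1 the share was 19.8%, and for Retnla and Retnlg it was 0%. Reads from shared windows can be split or dropped by the counting, so the Lyz and Ly6c values are uncertain to that extent.

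The relatives also fell. Of 8 listed relatives and family members 5 were tested, 4 fell and 0 rose, beside 22.5% and 19.0% of all tested genes. Lyz1, the lysozyme of alveolar type 2 and Paneth cells, was at 117 and 130 CPM in the Jun-Ctrl pair and at 7.01 and 9.45 CPM in the Jun-cKO-labelled pair, a 15.5-fold fall (95% interval 12.5 to 19.3, adjusted p = 1.05e-25). The interval of Lyz2, at 2.41 to 4.04, did not reach it, and the count ratio of Lyz2 to Lyz1 was 0.335 and 0.358 in the Jun-Ctrl pair and 1.41 and 2.00 in the Jun-cKO-labelled pair. Ly6c1, which endothelial cells also express, fell 6.10-fold from 24.6 ± 1.05 to 3.80 ± 1.20 CPM (adjusted p = 2.15e-14). Retnlg, a neutrophil gene next to Retnla, fell 2.34-fold from 71.6 ± 4.29 to 30.4 ± 1.07 CPM (adjusted p = 2.15e-10). Retnla and Retnlg were at nearly equal counts in Jun-Ctrl, with ratios of 1.12 and 1.09, and at 0.0798 and 0.129 in the Jun-cKO-labelled pair.

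Neutrophil granule and surface genes outside the 10 went mostly the same way. For the genes below, settings that ended a call are named in the same paragraph, apart from the test against a 1.5-fold change, which many of the smaller changes did not pass. Of 27 listed genes, 19 were tested, 14 fell, 2 rose and 3 were not called, with a median log2 fold change of -1.19. Counts on this and the later lists stand beside the 22.5% of all tested genes that fell and the 19.0% that rose. Ngp, a neutrophil granule protein, fell 3.96-fold from 42.6 ± 7.83 to 10.4 ± 3.40 CPM (adjusted p = 6.15e-13). Camp, the antimicrobial cathelicidin, fell 14.5-fold to 0.451 ± 0.0112 CPM, and Ltf, the iron-binding lactoferrin, fell 3.89-fold. The 2 that rose, named after their values were seen, were the cytokine gene Il1b, 1.6-fold (adjusted p = 9.51e-05), and the receptor gene Clec4e, 1.6-fold (adjusted p = 0.0125), and both are also induced in other myeloid cells. Clec4e lost its call with DESeq2 (adjusted p = 0.124), with the GC correction (0.0636), and on leaving out replicate 1 of Jun-Ctrl (0.25) or of Jun-cKO (0.201). Genes of the primary granules of immature neutrophils were low, with Elane at 0 counts in every library. Mpo had 1, 0, 5 and 2 counts and Prtn3 7, 1, 0 and 0, Jun-Ctrl libraries first. Ctsg had 11, 8, 14 and 0 counts in that order, and was tested and not called (adjusted p = 0.595). The summed level of the list was 308 and 294 CPM in the Jun-Ctrl pair and 172 and 173 CPM in the Jun-cKO-labelled pair.

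Monocyte genes were mixed. Of 19 listed, 15 were tested, 5 fell, 2 rose and 8 were not called, with a median of -0.39. F13a1, the coagulation factor XIII subunit made by monocytes and macrophages, fell 10.3-fold from 10.2 ± 0.281 to 0.803 ± 0.718 CPM (adjusted p = 1.28e-11). Ifitm6 fell 2.32-fold and Ms4a6d 2.43-fold. Clec12a, an inhibitory lectin receptor, rose 3.16-fold on counts of 12, 3, 30 and 15 (adjusted p = 0.00463), and the lipopolysaccharide co-receptor gene Cd14, named after its values were seen, rose 1.39-fold (adjusted p = 0.00486). The number that fell was 2 without Jun-Ctrl replicate 1, 3 without Jun-Ctrl replicate 2 and 2 in DESeq2. The Clec12a call ended in DESeq2 (adjusted p = 0.0789) and without either Jun-Ctrl library (0.0715 and 0.0717), the Cd14 call without Jun-Ctrl replicate 2 (0.14), and the Ms4a6d call in DESeq2 (0.0596) and without Jun-Ctrl replicate 1 (0.0807). The summed level of the list was 93.6 and 88.6 CPM in the Jun-Ctrl pair and 88.2 and 89.2 CPM in the Jun-cKO-labelled pair. Cd14 made up a large share of that sum, which without it was 55.9 and 57.5 against 42.3 and 37.5 CPM.

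Among macrophage genes 9 of 19 tested fell, 1 rose and 9 were not called, of 31 listed, with a median of -1.03. Chil3, a chitinase-like protein of alveolar macrophages, fell 8.69-fold from 11.5 ± 0.853 to 1.36 ± 0.164 CPM (adjusted p = 2.18e-12). Mpeg1, a pore-forming protein of phagocytes, fell 3.49-fold, and Ctss, a lysosomal protease, fell 2.04-fold. Ear1, a ribonuclease with near-identical family members whose counts are therefore uncertain, had 43 and 17 counts in the Jun-Ctrl pair and 0 in both Jun-cKO-labelled libraries, which with 3 counts set for that group is at least 19.1-fold lower. The 1 that rose, Mrc1, encodes a mannose receptor that lymphatic endothelial cells also express, and it went from 156 ± 20.1 to 245 ± 1.36 CPM (1.57-fold, adjusted p = 1.51e-05). It was named after its values were seen. With Mrc1 the summed level of the list was 311 and 283 CPM in the Jun-Ctrl pair and 320 and 319 CPM in the Jun-cKO-labelled pair. Without it the sum was 142 CPM in each Jun-Ctrl library, against 74.4 and 74.9 CPM. Several markers of tissue macrophages, C1qa, C1qc, Cd163 and Siglecf among them, had 0 counts in both Jun-cKO-labelled libraries. They had at most 18 counts in a Jun-Ctrl library and were not tested. Other such markers kept counts and were not called. C1qb had 35 and 15 counts in the Jun-Ctrl pair and 27 and 6 in the Jun-cKO-labelled pair (adjusted p = 0.264). Adgre1 had 14 and 9 against 19 and 10 counts (adjusted p = 0.561).

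Genes on the shared leukocyte list, meant to cover white cells in general, fell or were not called. Of 18 tested, 11 fell, 0 rose and 7 were not called, of 23 listed, with a median of -0.90. Cytip, an adhesion regulator, fell 3.15-fold, Laptm5, a lysosomal protein of blood cells, 1.78-fold, the glycoprotein gene Cd52 2.30-fold and the signalling adaptor gene Hcls1 5.94-fold. The number that fell was 6 without Jun-Ctrl replicate 1. Over the neutrophil, monocyte, macrophage and shared leukocyte lists together, 39 of 71 different tested genes fell and 5 rose, beside 22.5% and 19.0% of all tested genes. These lists overlap in kind with the 10 transcripts and were written with earlier results of these data known.

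**Figure D3:**
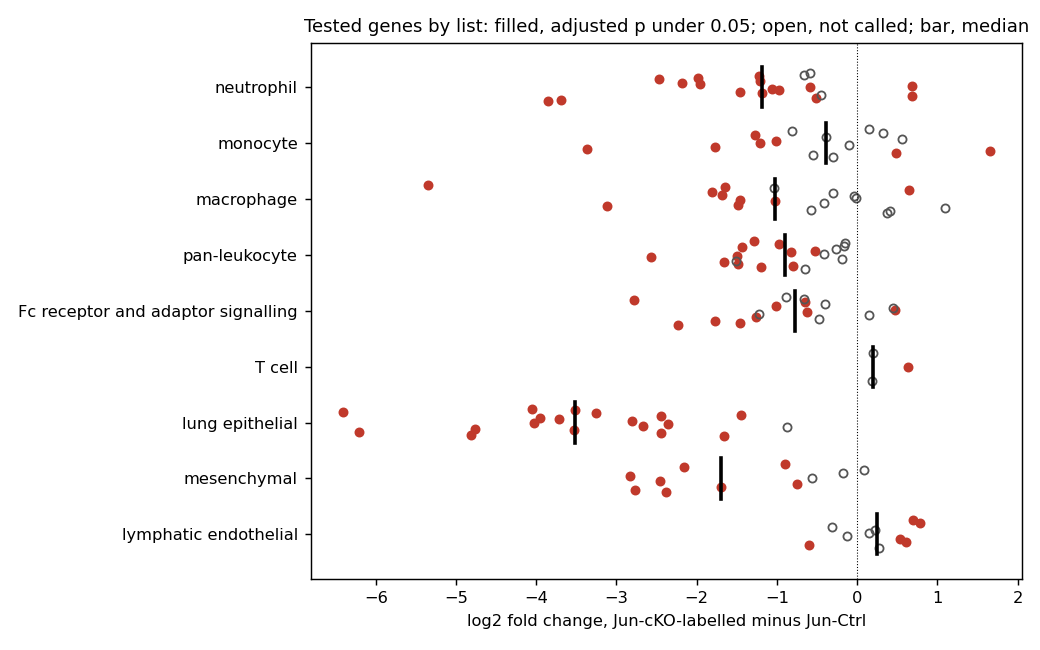
Log2 fold changes of the tested genes of 9 lists; filled points have an adjusted p under 0.05, open points do not, and black bars are list medians. Genes at 0 in a whole group, such as Ear1, are left out of the points. The neutrophil, macrophage and shared leukocyte lists have medians from -1.19 to -0.90. The monocyte list has one of -0.39 and the lung epithelial list one of -3.51.

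Genes that work with Fcer1g and Tyrobp were followed on a list of 22, of which 16 were tested. Of these 8 fell, 1 rose and 7 were not called, where 22.5% of all tested genes fell and 19.0% rose. Syk, the kinase that docks on these adaptors, fell 6.86-fold from 3.36 ± 0.646 to 0.484 ± 0.0575 CPM (adjusted p = 3.60e-06). The Fc receptor genes Fcgr3 and Fcgr1 fell 2.74-fold and 4.68-fold, the latter on counts of 30, 6, 6 and 1, and the Fcgr1 call ended in DESeq2 (adjusted p = 0.0936). Lyn, a kinase that endothelial cells also express, rose 1.39-fold from 155 ± 10.7 to 216 ± 10.4 CPM (adjusted p = 0.000794), and its call ended without Jun-Ctrl replicate 2 (0.0596). Among genes of the phagocyte oxidase, the enzyme that makes superoxide, Cybb, its catalytic subunit, fell 4.29-fold from 5.57 ± 0.955 to 1.36 ± 0.164 CPM (adjusted p = 2.20e-06), Ncf1 fell 1.94-fold and Rac2 fell 1.97-fold.

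Of 12 transcription factors with known roles in myeloid cells 8 were tested, 3 fell and 1 rose, with a median of -0.19. Of all tested genes 22.5% fell and 19.0% rose. Cebpa, needed for granulocyte and monocyte precursors, fell 6.44-fold from 3.49 ± 0.818 to 0.639 ± 0.348 CPM (adjusted p = 5.58e-06), and Runx1 fell 1.91-fold. Cebpb, also expressed in many other cells, rose 1.58-fold from 16.9 ± 0.538 to 26.5 ± 3.46 CPM (adjusted p = 0.00113), and Klf4, which was abundant at 990 ± 11.4 CPM, fell 1.30-fold. Runx1 lost its call with DESeq2 (adjusted p = 0.137) and on leaving out replicate 1 of Jun-Ctrl (0.288) or of Jun-cKO (0.239), and Klf4 with the GC correction (0.273) and on leaving out either Jun-Ctrl library (0.0683 and 0.068). Spi1, which encodes PU.1, was too low to test, with 14, 8, 1 and 1 counts. Which cells the RNA of these factors, Cebpa among them, came from was not tested.

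Growth factors and receptors for myeloid cells included Csf1, the ligand of Csf1r, which fell 1.71-fold from 11.5 ± 2.14 to 6.87 ± 0.109 CPM (adjusted p = 0.00324). The Csf1 call ended in DESeq2 (adjusted p = 0.05 after rounding) and without Jun-Ctrl replicate 1 (0.176). Of 11 listed, 6 were tested, 4 fell and 0 rose, beside 22.5% and 19.0% of all tested genes. The others that fell were Kit, 2.81-fold, the shared cytokine receptor subunit Csf2rb, 3.10-fold, and Kitl, 2.12-fold. Il34, the second ligand of Csf1r, had 9, 7, 1 and 0 counts and was not tested. Of 14 other S100 genes 9 were tested, of which 4 fell and 1 rose, with a median of -0.17, beside 22.5% and 19.0% of all tested genes. S100g and S100a14, both known from epithelium, fell 6.26-fold and 3.16-fold, S100a4 fell 1.45-fold, and S100a11 rose 1.53-fold (adjusted p = 0.000113), a call that ended without Jun-Ctrl replicate 1 (0.0972). Of 6 genes for receptors reported to bind S100A8 or S100A9, 4 were tested, with a median of -0.72. Of these 2 fell and 1 rose, beside 22.5% and 19.0% of all tested genes. Among the receptor genes, Ager fell 3.17-fold from 148 ± 23.9 to 46.3 ± 1.56 CPM. Ager is also on the lung epithelial list, and alveolar type 1 epithelium makes it in quantity. Alcam fell 2.27-fold, Bsg rose 1.26-fold (adjusted p = 0.0216) and Tlr4 had at most 12 counts in a library. Bsg lost its call with library totals (adjusted p = 0.061) and DESeq2 (0.0588), and on leaving out Jun-Ctrl replicate 1 (0.24), Jun-Ctrl replicate 2 (0.101) or Jun-cKO replicate 1 (0.367).

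Few lymphoid markers had enough reads to test. Of 10 T cell genes 3 were tested and 1, Cd5, rose 1.56-fold (adjusted p = 0.00367), a call that ended without Jun-Ctrl replicate 1 (0.0597), and Cd3e and Cd8a had 0 counts in every library. The 1 tested B cell gene, Cd79b, was at 5.84 ± 1.05 and 5.75 ± 1.47 CPM. Of 3 tested natural killer and cytotoxic genes, Gzma, a granule protease, had no count in either Jun-Ctrl library, with 328 and 152 in the Jun-cKO-labelled pair, which with 3 counts set for the Jun-Ctrl group is at least 167-fold higher, and Prf1 fell 2.01-fold, a call that ended without Jun-Ctrl replicate 2 (adjusted p = 0.0959). The mast cell protease genes Cma1 and Cpa3 had 87 and 28, and 71 and 31 counts in the Jun-Ctrl pair and 0 in the Jun-cKO-labelled pair, at least 36.7-fold and 32.5-fold lower. These were the 2 tested of 10 mast cell, basophil and eosinophil genes, and of the 8 with 0 counts in both Jun-cKO-labelled libraries 4 had 0 counts in the Jun-Ctrl libraries too. Of 3 tested dendritic cell genes 1 rose (H2-Ab1, 1.91-fold, adjusted p = 0.025), of 4 tested platelet genes 2 fell (Gp1bb 3.85-fold and Pf4 2.09-fold, adjusted p = 0.0475), and the 1 tested erythroid gene, Fech, was not called (adjusted p = 0.0524). H2-Ab1 lost its call with DESeq2 (adjusted p = 0.183) and on leaving out Jun-Ctrl replicate 1 (0.166), Jun-Ctrl replicate 2 (0.117) or Jun-cKO replicate 1 (0.184). Pf4 lost its call with DESeq2 (adjusted p = 0.187), limma-voom (0.0932) and the GC correction (0.0553), and on leaving out Jun-Ctrl replicate 2 (0.543) or Jun-cKO replicate 1 (0.322). Whether the myeloid genes differ from the lymphoid ones was not tested.

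Most tested markers of lung epithelium and mesenchyme fell, as the 10 transcripts did, beside 22.5% of all tested genes called lower and 19.0% called higher. Of 19 lung epithelial genes, Lyz1 among them, 18 fell and 0 rose, with a median of -3.51 and a summed level of 2090 and 2181 CPM in the Jun-Ctrl pair against 230 and 225 CPM in the Jun-cKO-labelled pair. Epcam, a surface protein of epithelium, had 48, 16, 2 and 0 counts. Of 11 tested mesenchymal genes 8 fell, 0 rose and 3, Pdgfra, Pdgfrb and Dcn, were not called. The median of the 11 was -1.70, and the list summed to 337 and 339 against 108 and 115 CPM. The fall of Lyz2 and Retnla stands beside that of Sftpc, the surfactant protein gene of alveolar type 2 cells, which fell 11.4-fold. The count ratio of Retnla to Sftpc was 0.0604 and 0.0611 in the Jun-Ctrl pair and 0.0222 and 0.0332 in the Jun-cKO-labelled pair, and that of Lyz2 to Sftpc 0.0308 and 0.0349 against 0.0881 and 0.163. Relative to Sftpc, Retnla was lower and Lyz2 higher in both Jun-cKO-labelled libraries. The part of other cell types in the fall of the 10 transcripts was not tested.

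The calls on the 10 transcripts were then recomputed under 13 other settings. All 10 stayed lower in each of them, and all 10 passed the threshold in 12 of the 13, the exception being S100a8 in the test against a 1.5-fold change. Leaving out any 1 of the 4 libraries left 10 of 10 called, with the largest adjusted p at 0.0186, for Ptprc. With a correction for GC content, which the fold changes of all genes followed (Spearman's rho = -0.338 across 12188 genes, which are not independent replicates), the log2 fold changes ran from -0.95 for S100a8 to -4.81 for Retnla.

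**Figure D4:**
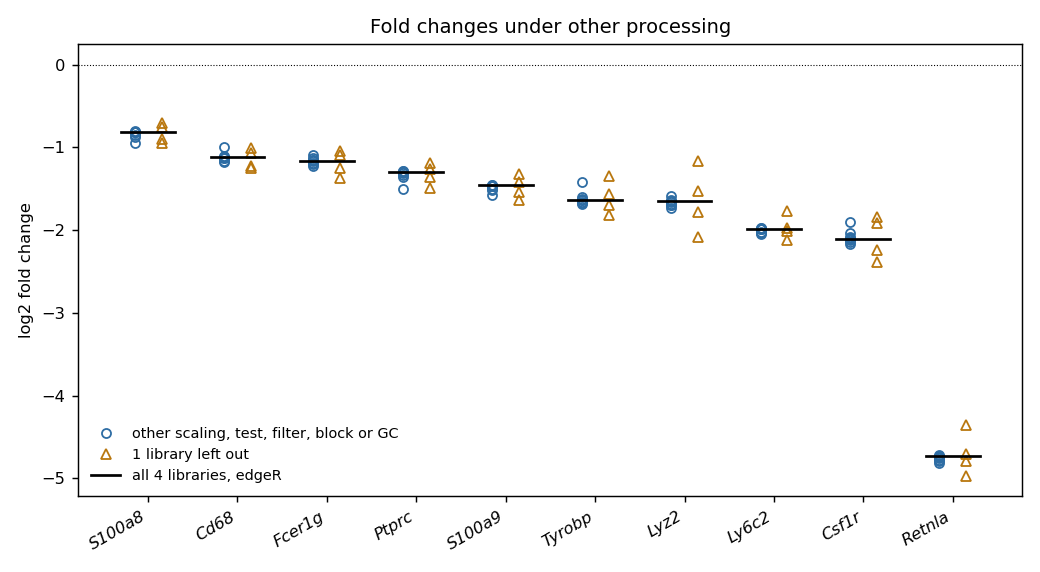
Log2 fold changes of the 10 transcripts with all 4 libraries in edgeR (black bars), under other scaling, tests, filters, the replicate block or GC correction (blue circles), and with 1 library left out (orange triangles). Every value lies below 0, and the widest spread from leaving out a library is that of Lyz2, from -2.09 to -1.16.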

How the data were processed

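Bulk RNA sequencing of sorted lung lymphatic endothelial cells gave 4 libraries, 2 per group, with RNA amplified before library making and reads of 79 bases, per the labels' protocols. The authors deposited raw counts per gene, beside each gene's length. The submitters' processing notes list mm10 as the build and, with no role stated, edgeR 3.28.1, featureCounts 1.6.4 and STAR 2.7.2a. How strand was handled, and which annotation was used, is not given in the sources used here, so reads of overlapping or antisense genes cannot be told apart. Columns were matched to libraries by their titles. No row was a total or unassigned class.

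After TMM scaling and filterByExpr, a quasi-likelihood model (glmQLFit, glmQLFTest; edgeR 4.0.16, R 4.3.3) with no block compared the counts as Jun-cKO minus Jun-Ctrl, and p-values were adjusted over all 12656 genes tested. A gene was called at an adjusted p under 0.05. CPM use TMM-scaled library sizes, RPKM divide them by the deposited length, standard errors are the fold change over the root of its F statistic, and intervals are 95%. In a library, 3 counts equal 0.187 to 0.463 CPM. A group at 0 was set against 3 counts, and such bounds cover counting error only, since amplified reads are not independent molecules. The steps were tested on simulated data in which far fewer genes changed than were called here. That run therefore does not check false calls when so many genes differ. Coordinates and near copies come from GENCODE M21 (GRCm38, the build mm10 names), where 96.3% of tested genes matched by name, and promoters from RefSeq (GRCm38.p6).

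The 10 members and the 21 further lists were chosen with earlier results of these data known. Genes named were all 10 members, 3 relatives, Jun, and in each list at most 4 called genes with the smallest p or, where none was called, up to 2 of the highest level. A result that the rule takes is not reported here. Genes outside this rule, and genes given to show counts near 0, were chosen after their values were seen. Alternatives were DESeq2 size factors, library totals, the DESeq2 1.42.0 Wald test, limma-voom (limma 3.58.1), dropping the filter or asking for 50 counts in at least 2 libraries, blocking on the replicate number, a loess correction for transcript GC content (span 0.5), each library left out, and a test against a 1.5-fold change.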

Additional observations from a re-analysis of the deposited data

How the results depend on the processing

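Of the 13 alternatives, 12 left all 10 transcripts called lower and the test against a 1.5-fold change left 9. Over all genes that test called 1453, of which 1192 were lower and 261 higher, and the DESeq2 Wald test called 1564 higher. Without 1 library in turn the calls ran from 2992 to 4794, with 1815 to 2656 lower and 1177 to 2214 higher, the lowest in each case without Jun-Ctrl replicate 1. The filter of 50 counts, which tests fewer genes, left 9 neutrophil, 1 monocyte, 4 macrophage and 6 shared leukocyte genes called lower. The DESeq2 Wald test left 2 monocyte genes, and the test against a 1.5-fold change 2 monocyte and 7 shared leukocyte genes. Without 1 library in turn the genes called lower were 11 to 14 on the neutrophil, 2 to 6 on the monocyte, 7 to 11 on the macrophage and 6 to 12 on the shared leukocyte list. Cd79b, not called at a log2 fold change of -0.03, was at 0.15 after GC correction, 0.10 to 0.27 where leaving out Jun-Ctrl replicate 2 or Jun-cKO replicate 1 reversed it, and from -0.26 to 0.27 over all omissions; the cause was not tested. Jun passed after GC correction (log2 fold change 0.41, adjusted p = 0.00319, against 0.00319 to 1 over all alternatives).

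The titles pair the libraries only by the word replicate. Deviations of same-numbered libraries from their group means correlated at 0.0732 across genes, and the replicate block called 5426 genes, 2521 higher and 2905 lower, against 5251, with all 10 transcripts called. Among the genes named here the block changed 1 call, that of the erythroid gene Fech (adjusted p = 0.046 against 0.0524). With 20 to 140 Ptprc and 13 to 99 Csf1r counts per library, depth limits the precision of these most.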
